A study of Saccharomyces cerevisiae with 8 samples.

Results

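Replicates 1 and 2 of the YPD cultures of WT and *pbp1Δ* *Saccharomyces cerevisiae* cells were set against each other, with 1 library of each genotype on both sides. These are 4 of the 8 poly-A RNA-seq libraries, and 5759 of the 5774 genes in the table were described, those whose normalized counts averaged 10 or more. The libraries were chosen because the genotypes were already known to deviate together between the YPD replicates. The values of this contrast are therefore a description, and carry no test. All strains are in the prototrophic CEN.PK background. The *pbp1Δ* strain has the *PBP1* gene replaced by a hygromycin resistance cassette, and *PBP1* encodes the yeast ortholog of ataxin-2. YPD is rich medium with glucose, in which cells were taken in log phase, and YPL is rich medium with lactate, in which cells were taken 3 h after the switch. The labels name 2 biological replicates per genotype and medium. They do not say whether equal numbers mark a shared day or batch of medium.

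*PBP1* (YGR178C) had 12686 and 11943 normalized counts in the WT YPD libraries and 0 in both *pbp1Δ* YPD libraries. The libraries held 34328539 to 39578006 normalized counts in all, and the 10 most abundant genes took 5.84% to 9.43% of them. The markers of glucose growth fitted the medium in all 4 YPD libraries. *HXT1*, a low-affinity glucose transporter, had 5011 to 9191 normalized counts in YPD, against 322 to 506 in YPL. *PCK1*, the first committed enzyme of gluconeogenesis, had 283 to 439 in YPD, against 142557 to 197388 in YPL. The genotypes also differed in mating-type transcripts, as *STE3*, the receptor for **a**-factor, had 258 and 209 normalized counts in the WT and 16267 and 17118 in the *pbp1Δ* YPD libraries. Each replicate difference below was taken within a genotype, where this difference cancels.

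Budding yeast answers many kinds of stress with a shared program. The transcription factors Msn2 and Msn4 bind stress response elements and raise genes for trehalose and glycogen metabolism, antioxidant enzymes and alternative isozymes of glycolysis, while Hsf1 binds heat shock elements before chaperone genes. Protein kinase A and TORC1, which are active in glucose, hold Msn2 and Msn4 back and promote the genes for ribosomes and their assembly, so that stress and growth genes tend to move in opposite directions. Many steps of sugar breakdown have a major isozyme made in abundant glucose and a minor isozyme made when glucose is scarce or under stress.

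The first set of sequences shows a stress response element in the promoters of stress and sugar genes with large differences between the YPD cultures. *HSP30* and *YRO2* were also searched for display, but had no such site at least 100 bases before the start codon. Each window has 30 bases of the R64 assembly, which is the S288C reference and not CEN.PK, and reads 5′ to 3′ on the coding strand of the gene. Capitals mark the AGGGG, or its reverse complement CCCCT, at the centre of each window. The *GLK1* window also holds an AGGGG in small letters, shortly before the marked CCCCT. The *TSL1* window lies at chrXIII:70447-70476, that of *TDH1* at chrX:338030-338059 and that of *GLK1* at chrIII:50659-50688, all on the plus strand. *HXK1* is on the minus strand, at chrVI:255369-255398.
TSL1: ggggtagaaccaAGGGGctagcacactcac
TDH1: atagtctgaagaAGGGGgggaggagcatgt
GLK1: ctttcagggggcCCCCTatcttgggcgtgg
HXK1: catttttttttaAGGGGttgatgaaaagaa

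The second set shows the heat shock element of chaperone genes, with GAANNTTC in capitals, and the PAC element of a ribosome assembly gene, with GCGATGAG in capitals. The same search gave no GAANNTTC to show for *HSP30* and *HSP82*, and no PAC element for *RSA4*, *RRN11* and *SLX9*. *HSP104* is shown with both a heat shock element, at chrXII:88315-88344, and a stress response element, at chrXII:88439-88468. The *HSP42* window lies at chrIV:806372-806401, that of *BTN2* at chrVII:772104-772133 and that of *BFR2* at chrIV:1059505-1059534, all on the plus strand. *SSA1* is on the minus strand, at chrI:141669-141698.
HSP104, heat shock element: atatttttccaGAATTTTCtagaagggtta
HSP104, stress response element: agtaaaaggcaaAGGGGcgcaaacttatgc
HSP42, heat shock element: taaaagttctgGAAGGTTCgcgaattgaga
SSA1, heat shock element: ttctttttccaGAACGTTCcatcggcggca
BTN2, heat shock element: ttttttttctaGAAAGTTCcggaaaattgc
BFR2, PAC element: tttttcaatacGCGATGAGatgagataatt

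Across genes, the YPD cultures differed mostly in one direction. Differences are log2(normalized count + 1) of replicate 1 minus replicate 2 within a genotype, and the mean of both genotypes is given with its SD (n = 2 genotypes). A gene was counted when both genotypes were past an absolute log2 difference of 1 in the same direction, that is, past 2-fold. By this rule 217 genes were higher in replicate 1, which is 3.77% of all genes, and 21 were higher in replicate 2, which is 0.365%. Of the 217, 63 were over 4-fold and 18 over 8-fold higher in both genotypes, while 0 of the 21 reached 4-fold. At a log2 difference of 0.58, 449 genes (7.8% of all) were higher in replicate 1 and 142 (2.47%) in replicate 2. The median difference of all genes was -0.03, the 5th percentile -0.53 and the 95th percentile 0.95.

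The genotypes gave nearly the same picture. Of 313 genes past the threshold toward replicate 1 in WT cells, 306 differed the same way in *pbp1Δ* cells, with a median of 1.28. Of 249 such genes in *pbp1Δ* cells, 245 differed the same way in WT cells, with a median of 1.63. Over all genes, 81.2% had the same sign in both genotypes, and Pearson's r of the differences was 0.85 across genes, which are not independent replicates. Only 13 genes differed in opposite directions past 0.58, and all 13 had a mean under 100 normalized counts (the highest was 85.1). The chosen thresholds left close neighbours on either side. *HOR7* was just inside at 1.00 in WT and 1.12 in *pbp1Δ* cells, and *YBL086C* just outside at 1.06 and 0.99. Toward replicate 2, *CLB5* was just inside at -1.13 and -1.005, and *CRR1* just outside at -1.44 and -0.997. For the filter on the mean, *MRPL38* was just inside at 10.2 and *YMR082C* just outside at 9.65.

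**Figure D1:**
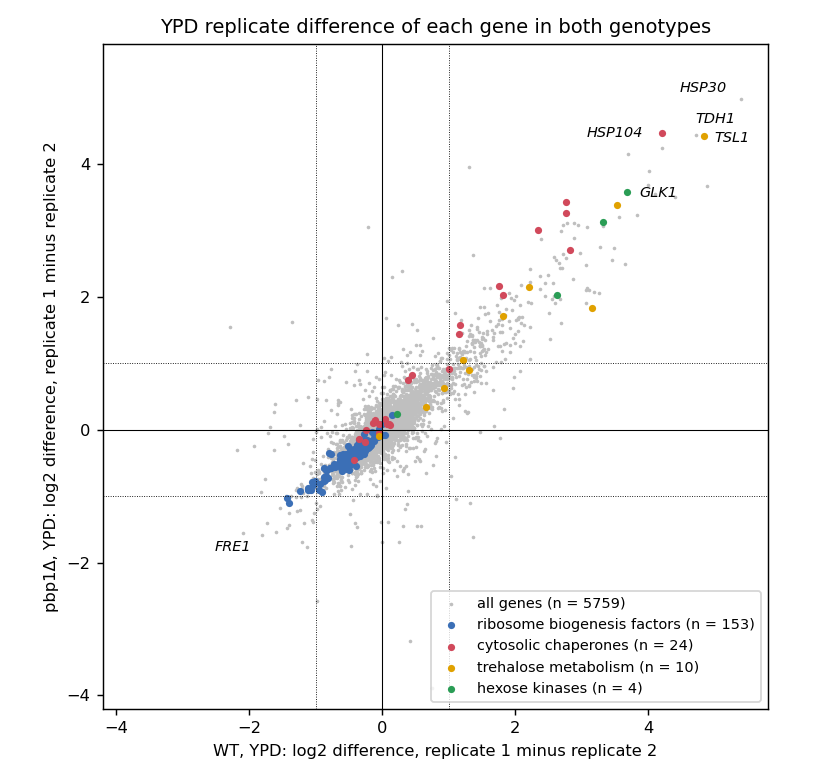
Each point is a gene, with its log2 difference between YPD replicates 1 and 2 in WT cells on the x axis and in *pbp1Δ* cells on the y axis. Colours mark 4 gene lists, and dotted lines stand at -1 and 1. The 217 genes past 1 in both genotypes form a long arm at the upper right, which holds chaperone, trehalose and hexose kinase genes, while ribosome biogenesis factors lie below 0.

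The genes were grouped in 48 lists by function, which hold 1329 genes. Of the 217 genes higher in replicate 1, 90 were in a list and 127 in none, and of the 21 genes higher in replicate 2, 9 were in a list. The median difference was over 0.58 in 5 lists, namely the hexose kinases (2.77), trehalose metabolism (1.45), other general stress genes (1.06), glycogen metabolism (1.05) and the small heat shock proteins and hydrophilins (0.80, or 1.32 in the WT pair and 0.59 in the *pbp1Δ* pair alone). It was under -0.25 in 3 lists, the ribosome biogenesis factors (-0.44), the subunits and initiation factors of RNA polymerases I and III (-0.30) and the cyclins and cell cycle inhibitors (-0.25). In 34 lists the median lay within 0.25 of 0, among them the proteasome (-0.04), the respiratory complexes (-0.03), amino acid synthesis outside arginine, lysine and the branched-chain pathways (0.006) and the pentose phosphate pathway (0.03). The YPD cultures thus differed in stress, storage carbohydrate and growth genes, and little in most of the biosynthetic and mitochondrial lists.

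**Figure D2:**
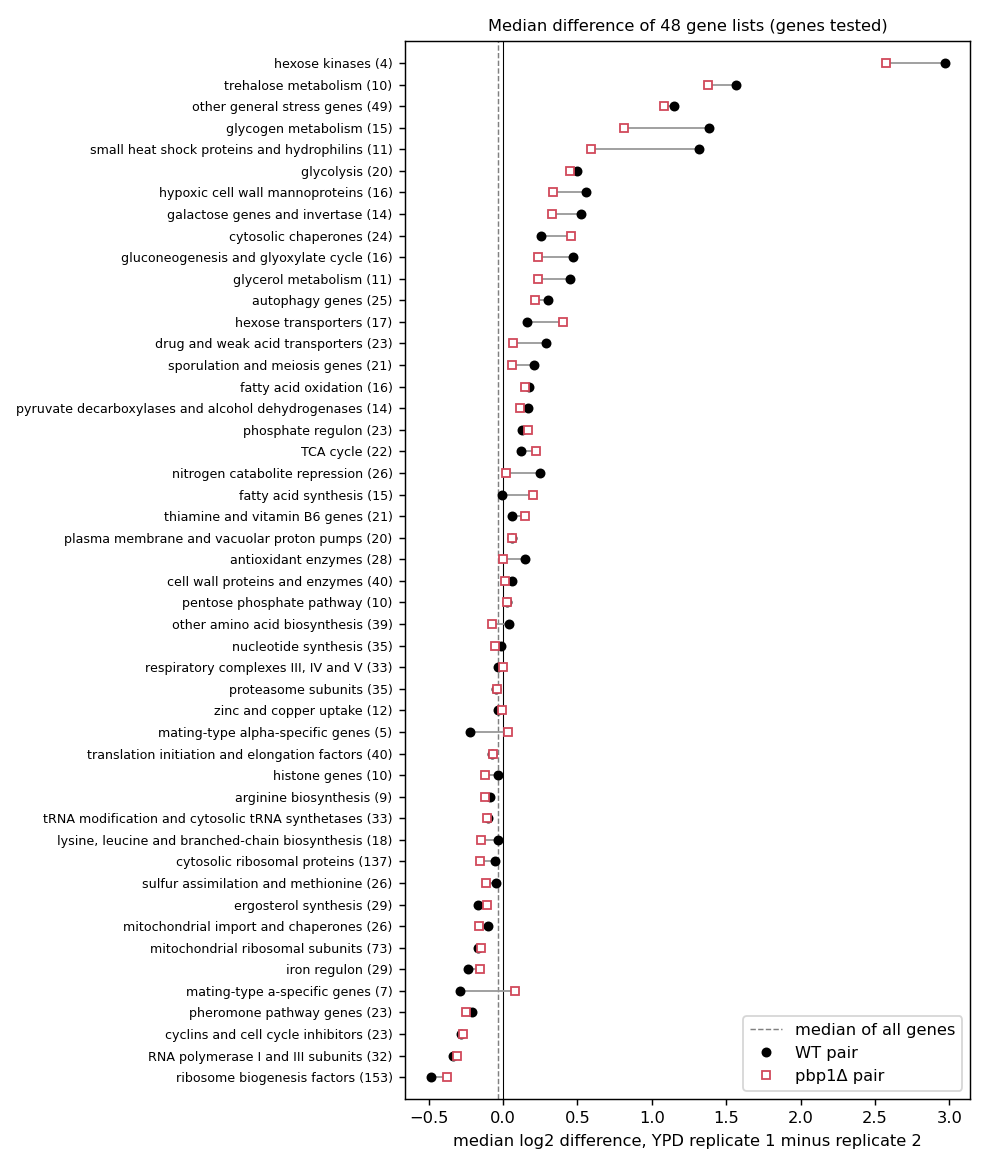
Median log2 difference between YPD replicates 1 and 2 of 48 gene lists, for the WT pair (filled circles) and the *pbp1Δ* pair (open squares), with the number of genes of each list in brackets. The dashed line is the median of all genes (-0.03). Hexose kinases, trehalose and stress lists lie to the right in both genotypes, and ribosome biogenesis factors lie lowest.

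The largest difference of all genes was in *HSP30* (YCR021C, chromosome III from 156109 to 157107), which encodes a plasma membrane protein that restrains the proton pump Pma1 under stress. It had 50850 normalized counts in WT and 45505 in *pbp1Δ* cells of replicate 1, against 1207 and 1447 in replicate 2. The replicates were far apart and the genotypes close together, at a log2 difference of 5.18 ± 0.30 (SD, n = 2). In the 4 YPL libraries *HSP30* lay between 793 and 867, so that replicate 2 was near the YPL level and replicate 1 stood above every other library. *PMA1* itself had a mean difference of 0.44, the highest of 20 plasma membrane and vacuolar proton pump genes, of which 0 passed the threshold. *YRO2*, which encodes a membrane protein related to Hsp30, had 17344 and 11862 normalized counts in replicate 1 of WT and *pbp1Δ* cells. In replicate 2 it had 939 and 626, a difference of 4.22 ± 0.03. Its paralog *MRH1* differed by 1.42 ± 0.47.

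Transporters that export polyamines were among the genes with large differences. *TPO2* had 31466 normalized counts in WT and 37429 in *pbp1Δ* cells of replicate 1, against 2797 and 5625 in replicate 2. *TPO4* had 17778 and 17211 against 2109 and 2071, and *TPO3* had 20376 and 23200 against 4442 and 6161. The log2 differences were 3.11 ± 0.54, 3.06 ± 0.01 and 2.06 ± 0.20. *TPO1*, the fourth transporter of this group, was at -0.13. In the list of drug and weak acid transporters and related membrane proteins, 7 of 23 genes were higher in replicate 1, *HSP30* among them. The multidrug pumps *PDR5* (-0.31) and *SNQ2* (-0.05), and *PDR12* (0.37), which exports weak acids, were under the threshold. *SPI1*, a wall protein linked to weak acid resistance, had 5038 and 3992 against 354 and 426.

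In the list of small heat shock proteins and hydrophilins, 4 of 11 genes were higher in replicate 1, and they did not follow a single pattern. The list also holds *HSP30* (5.18), a membrane protein that is neither, and it is part of this count and of the list median. *HSP42*, a small heat shock protein that gathers misfolded proteins into aggregates, had 12819 normalized counts in WT and 15696 in *pbp1Δ* cells of replicate 1. In replicate 2 it had 987 and 883, a difference of 3.92 ± 0.32. *HSP26*, another small heat shock protein, had 1280 and 613 against 439 and 241, a difference of 1.44 ± 0.14. *HSP12*, which encodes a membrane-associated hydrophilin and is a widely used target of Msn2 and Msn4, was much less different. It had 1023 and 487 normalized counts in replicate 1 and 657 and 320 in replicate 2, a difference of 0.62 ± 0.02. Here the WT library of replicate 2 lay above the *pbp1Δ* library of replicate 1, so that the replicates overlap across genotypes but not within them. In YPL *HSP12* lay between 53481 and 121912, far above all YPD libraries. The genes whose 8 library values were most like those of *HSP12* were *ATG34*, *YPL229W*, *LAP3*, *COX6* and *SOD2*, with Pearson's r from 0.997 to 0.998. Their own YPD replicate differences lay between 0.05 and 0.26, as the likeness rests on the gap between media.

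**Figure D3:**
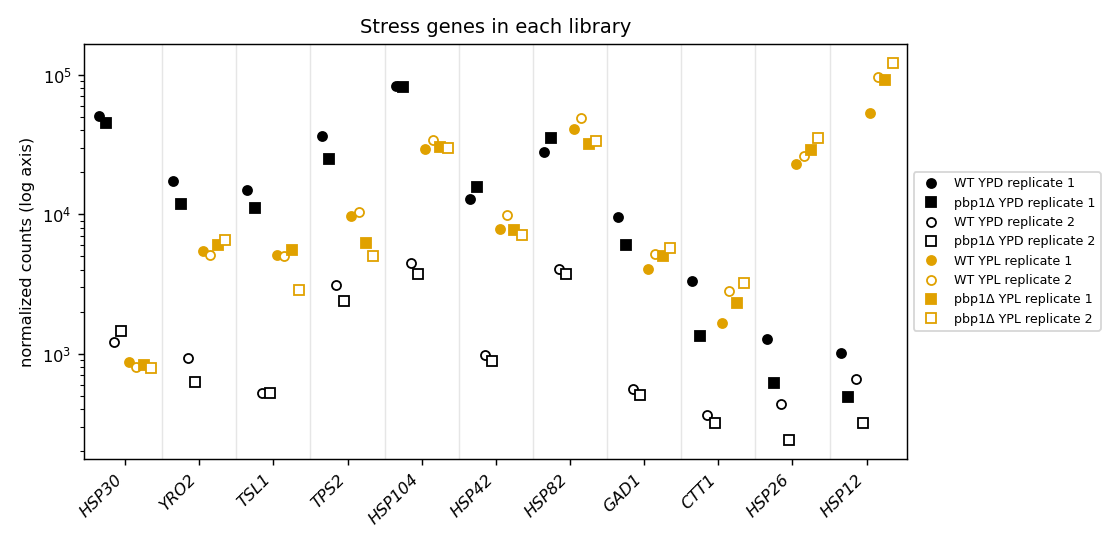
Normalized counts of 11 stress genes in each of the 8 libraries, on a log axis. Filled black symbols are YPD replicate 1, open black symbols YPD replicate 2 and yellow symbols YPL, with circles for WT and squares for *pbp1Δ* cells. From *HSP30* to *CTT1* the replicates of YPD are separated in both genotypes. In *HSP12* they overlap across genotypes but not within them, and the gene is highest in YPL.

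Chaperone genes differed from member to member. Of 24 cytosolic chaperones and cofactors, 9 were higher in replicate 1 and 0 in replicate 2, with a list median of 0.34. *HSP104*, the disaggregase that frees proteins from aggregates, had 83237 normalized counts in WT and 82475 in *pbp1Δ* cells of replicate 1. It had 4478 and 3747 in replicate 2, a difference of 4.34 ± 0.17, and 29212 to 34386 in YPL. *HSP78*, the mitochondrial disaggregase, differed by 3.10 ± 0.46. *BTN2*, a sorting factor for misfolded proteins, differed by 2.68 ± 0.47 and its paralog *CUR1* by 1.92 ± 0.15. The J-domain proteins *SIS1* (1.30 ± 0.20) and *APJ1* (1.37 ± 0.29) were also past the threshold.

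Paralogs of the same chaperone differed sharply. *HSP82*, the inducible Hsp90, had 27914 and 35546 normalized counts in replicate 1 of WT and *pbp1Δ* cells, and 4086 and 3730 in replicate 2. *HSC82*, the constitutive Hsp90, had 56266 and 57491 against 66762 and 57851. Their log2 differences were 3.01 ± 0.34 and -0.13 ± 0.17. In the Hsp70 family, *SSA1* had 28886 and 31115 against 8529 and 6934, a difference of 1.96 ± 0.29, and *SSA2* had 65704 and 65323 against 70861 and 58954, a difference of 0.02 ± 0.18. The heat-inducible *SSA4*, at 0.95 ± 0.07, was just under the threshold and *SSA3* was at -0.44. Of the Hsp110 genes, *SSE2* differed by 2.77 ± 0.09 and *SSE1* by 0.01. *HSP82* and *HSC82*, and *SSA1* and *SSA2*, are nearly identical in long stretches, and the uniquely mapped reads counted come from the rest of each gene, so that the levels of such pairs are less certain than those of other genes.

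Genes of trehalose metabolism, which makes the protective disaccharide of stressed and resting cells, were higher in replicate 1 in 6 of 10 cases. *TSL1*, the regulatory subunit of trehalose synthase, had 14891 normalized counts in WT and 11155 in *pbp1Δ* cells of replicate 1. It had 521 and 523 in replicate 2, a difference of 4.62 ± 0.30, the second largest of all. *TPS2*, the phosphatase of the same complex, had 36311 and 24901 against 3136 and 2393. *TPS1*, its synthase, had 29400 and 24686 against 6348 and 5583. For these subunits replicate 1 exceeded all YPL libraries and replicate 2 lay below all of them. The degrading enzyme *NTH1*, neutral trehalase, was higher too, at 1.76 ± 0.08, as was *PGM2*, the stress-inducible phosphoglucomutase, at 2.49 ± 0.94. The other phosphoglucomutase gene, *PGM1*, was the lowest of the list at -0.07.

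Glycogen genes gave the same picture for synthesis and breakdown. All 15 genes of the list had a positive mean difference and 7 were past the threshold. *GSY2*, the main glycogen synthase, had 6106 and 3770 normalized counts in replicate 1 of WT and *pbp1Δ* cells and 1308 and 1289 in replicate 2. *GPH1*, glycogen phosphorylase, had 3765 and 1551 against 299 and 275. *GLC3*, the branching enzyme, had 5600 and 3803 against 666 and 684. The replicates did not overlap in any of these genes. Their log2 differences were 1.88 ± 0.48, 3.07 ± 0.82 and 2.77 ± 0.42, larger in WT than in *pbp1Δ* cells each time. The median of the list was 1.38 in the WT pair and 0.81 in the *pbp1Δ* pair, and this gap between genotypes was not tested.

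Antioxidant genes were mostly under the threshold. The list of 28 had a median of 0.07, and 2 genes were higher in replicate 1. These were *CTT1*, the cytosolic catalase, with 3330 and 1334 normalized counts against 366 and 318 (2.62 ± 0.79), and *GPX1*, a glutathione peroxidase (1.72 ± 0.27). *CTA1*, the peroxisomal catalase, differed by -0.11, *SOD1*, the cytosolic superoxide dismutase, by -0.09 and *TSA1*, the main cytosolic peroxiredoxin, by -0.28. Of 49 other general stress genes, 24 were higher in replicate 1. The highest was *TMA10*, a ribosome-associated protein, with 2514 and 1792 against 155 and 120 (3.95 ± 0.09), and the lowest was *GRE2* at -0.59. *DDR2* differed by 2.49 ± 0.82, *UBI4*, the polyubiquitin gene, by 1.12 ± 0.06, and *GPD1*, which makes glycerol 3-phosphate under osmotic stress, by 2.34 ± 0.05. *GAD1*, glutamate decarboxylase, had 9586 and 5989 against 556 and 510.5. *SOL4*, a 6-phosphogluconolactonase, had 2456 and 1599 against 115 and 141. *EGO4* and *RTC3*, also among the 10 genes with the largest differences, were at 4.27 ± 0.87 and 3.84 ± 0.23. *MGA1*, which encodes a protein similar to heat shock factors, was at 3.38 ± 0.26.

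Some regulators of the stress program, named after their values were seen, were as follows. *MSN2* had 4424 and 4347 normalized counts in replicate 1 of WT and *pbp1Δ* cells and 4573 and 3847 in replicate 2, so that the replicates overlap. *MSN4* had 5570 and 4465 against 3248 and 2861, a difference of 0.71 ± 0.10. *YAK1*, a kinase that opposes growth downstream of protein kinase A, had 10167 and 8238 against 1290 and 1306 (2.82 ± 0.23). *TPK2*, a catalytic subunit of protein kinase A, was higher in replicate 1 as well, at 1.32 ± 0.05. *RIM15*, a kinase of the entry into stationary phase, was at 0.05. *USV1*, a stress-linked transcription factor, differed by 2.32 ± 0.50. *NRG1*, a repressor of glucose-repressed genes, had 5281 and 3870 against 1574 and 1625. Transcript levels do not show the activity of these kinases and factors.

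Glycolytic isozymes separated by class. Of 4 hexose kinase genes, 3 were higher in replicate 1. *GLK1*, glucokinase, had 22834 normalized counts in WT and 19219 in *pbp1Δ* cells of replicate 1, against 1785 and 1610 in replicate 2. *HXK1*, the hexokinase repressed by glucose, had 7077 and 3895 against 711 and 445. *EMI2*, a relative of *GLK1*, had 8241 and 4584 against 1338 and 1126. *HXK2*, the main hexokinase of glucose-grown cells, had 54389 and 46684 against 46445 and 39502. The log2 differences were 3.63 ± 0.07, 3.22 ± 0.13 and 2.32 ± 0.42 for the first 3 and 0.23 ± 0.01 for *HXK2*, whose replicates hardly separate.

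The same split was seen at later steps. *TDH1*, the minor glyceraldehyde-3-phosphate dehydrogenase linked to stress, had 47885 and 32900 normalized counts in replicate 1 of WT and *pbp1Δ* cells, and 1820 and 1529 in replicate 2. *TDH3*, the major isozyme, had 602711 and 601089 against 504648 and 563246, and *TDH2* had 171986 and 148130 against 98213 and 100351. Thus *TDH1* differed by 4.57 ± 0.21, *TDH2* by 0.69 ± 0.17 and *TDH3* by 0.17 ± 0.11. Of the enolases, *ENO1* had 96177 and 88128 against 17053 and 17633, and *ENO2* had 468336 and 423741 against 377083 and 361718. Of the pyruvate kinases, *PYK2* had 2349 and 1771 against 850 and 729, and *CDC19* had 100671 and 95232 against 78909 and 79645. The minor isozyme exceeded the major in its difference in both pairs, with 2.41 ± 0.12 for *ENO1* against 0.27 ± 0.06 for *ENO2*, and 1.37 ± 0.13 for *PYK2* against 0.30 ± 0.07 for *CDC19*. The *TDH* and *ENO* genes also share near-identical stretches, which makes the split of their reads uncertain.

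The whole glycolysis list of 20 genes had a median of 0.48, and 19 of the genes had a positive mean difference. The 3 past the threshold were *TDH1*, *ENO1* and *PYK2*. Steps that have a single enzyme had positive mean differences under the threshold, with *FBA1* (aldolase) at 0.33, *TPI1* (triose phosphate isomerase) at 0.47 and *PGK1* (phosphoglycerate kinase) at 0.42. *PFK1*, a subunit of phosphofructokinase, was at 0.65 ± 0.03 and *PFK27*, a regulator of that step, was lowest at -0.13. For fermentation, *PDC1*, the main pyruvate decarboxylase, was at 0.18 ± 0.02 and *ADH1*, the main fermentative alcohol dehydrogenase, at 0.46, while *ADH2*, which is repressed by glucose and uses ethanol, was at -0.47.

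**Figure D4:**
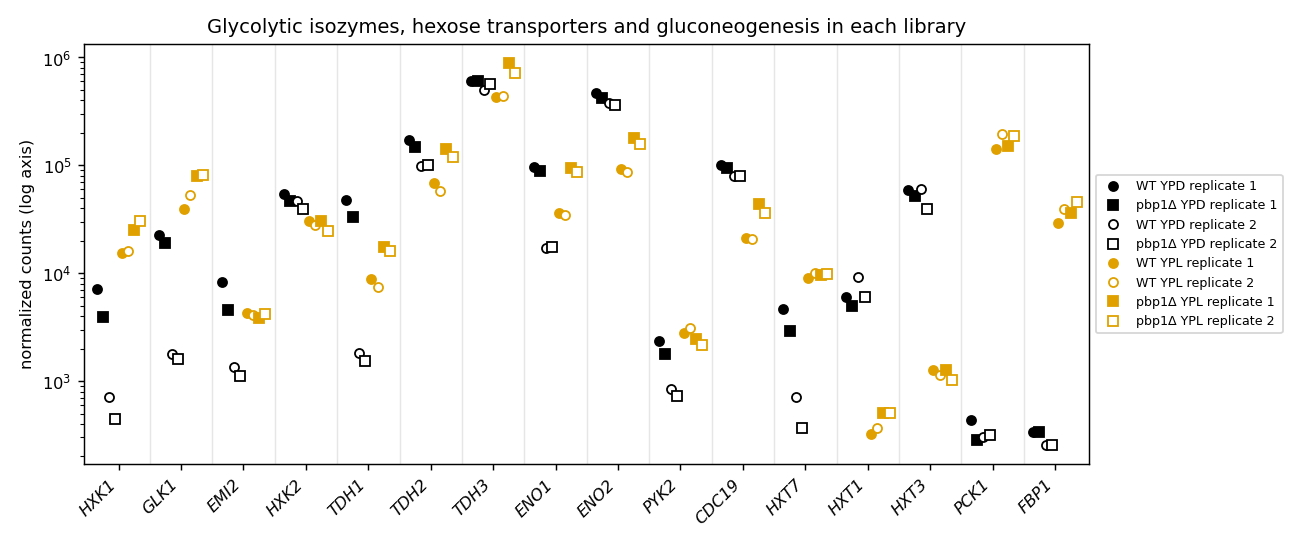
Normalized counts of 16 genes of sugar uptake, glycolysis and gluconeogenesis in each of the 8 libraries, on a log axis. Filled black symbols are YPD replicate 1, open black symbols YPD replicate 2 and yellow symbols YPL, with circles for WT and squares for *pbp1Δ* cells. *HXK1*, *GLK1*, *EMI2*, *TDH1*, *ENO1*, *PYK2* and *HXT7* are separated between the YPD replicates, whereas *PCK1* and *FBP1* are low in all 4 YPD libraries.

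Of 17 hexose transporter genes, 2 were past the threshold. *HXT7*, a high-affinity transporter, had 4612 and 2928 normalized counts in replicate 1 of WT and *pbp1Δ* cells and 713 and 368 in replicate 2 (2.84 ± 0.21). *HXT5*, a transporter of slow-growing cells, had 1234 and 1141 against 549 and 544 (1.12 ± 0.07). The low-affinity *HXT1* was lower in replicate 1 in each genotype, at -0.62 and -0.28, and *HXT3* overlapped between replicates. *HXT6*, nearly identical to *HXT7*, was at 1.25 ± 0.40 and missed the threshold in *pbp1Δ* cells, and its reads cannot be well separated from those of *HXT7*. *HXT2* was at 0.38 and *HXT4* at 0.35.

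Genes of gluconeogenesis and the glyoxylate cycle mostly differed in the same direction as the glucose-repressed isozymes, but by less. *PCK1* had 439 and 283 normalized counts in replicate 1 of WT and *pbp1Δ* cells and 301 and 317 in replicate 2. *FBP1*, fructose-1,6-bisphosphatase, had 337 in both libraries of replicate 1 and 255 and 257 in replicate 2, a difference of 0.40 ± 0.01. *ICL1*, isocitrate lyase, was at 0.06 ± 0.17. In the list of 16 genes for gluconeogenesis and the glyoxylate cycle, 2 were higher in replicate 1, led by *MDH2*, a cytosolic malate dehydrogenase (1.34 ± 0.22). This list is wider than its name, as its lowest member was *YAT1*, a carnitine acetyltransferase (-0.26). The mean difference was positive in 14 of the 16 and negative in 2. The list median was 0.28, or 0.47 in the WT pair and 0.235 in the *pbp1Δ* pair alone. The citrate synthases *CIT2* (2.58 ± 0.11) and *CIT1* (1.76 ± 0.01) were the 2 of 22 TCA cycle genes past the threshold. Maltose genes were higher in replicate 1, with *MAL12* at 3.01 ± 0.37, *MAL11* at 2.68 ± 0.06, *MAL31* at 1.87 ± 0.36 and *MAL32* at 1.69 ± 0.22. *MAL12* and *MAL32* are nearly identical. The invertase gene *SUC2* was at 0.18 and *GAL1*, galactokinase, at -0.21, so that the galactose, maltose and invertase list of 14 differed in its maltose genes.

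Cell wall genes differed in a few members. Of 40 genes 6 were higher in replicate 1, and the median was 0.03. Beside *SPI1* these were *PIR3*, a covalently linked wall protein (2.60 ± 0.67), *CHS1*, chitin synthase 1 (1.36 ± 0.06), *PST1* (1.32 ± 0.03), *SED1* (1.12 ± 0.07) and *YPS3* (1.09). *SLT2*, the MAP kinase of the cell wall integrity pathway, had 14203 and 13590 normalized counts in replicate 1 of WT and *pbp1Δ* cells and 5082 and 5492 in replicate 2. *MTL1*, a wall sensor, had 2844 and 2359 against 472 and 587. *ROM1*, an exchange factor of Rho1, was at 1.84 ± 0.03, and *SDP1*, a phosphatase that acts on Slt2, at 2.33 ± 0.42. Of other genes among the 217, *CMK2*, a calmodulin-dependent kinase, was at 2.22 and *PMC1*, the vacuolar calcium pump, at 1.18 ± 0.05. Of 23 phosphate genes, the acid phosphatases *PHO3* (1.78 ± 0.20), *PHO5* (1.73 ± 0.10) and *PHO11* (1.13 ± 0.01) were higher in replicate 1.

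Growth genes were lower in replicate 1, by small amounts and over many members. The median of all genes was itself below 0, at -0.03, so that counts of genes below 0 are to be read beside a background in which most genes lie there. Of 153 ribosome biogenesis factors, 151 had a negative mean difference, and the median was -0.48 in the WT pair and -0.37 in the *pbp1Δ* pair. At a log2 difference of 0.58, 22 were higher in replicate 2 and 0 in replicate 1, and at 1 there were 2. *BFR2*, a component of the complex that processes the small subunit, was the lowest of the list, with 3558 and 4153 normalized counts in replicate 1 of WT and *pbp1Δ* cells against 9364 and 8940 in replicate 2 (-1.25 ± 0.21). *RSA4*, a factor of large subunit assembly, had 2458 and 3074 against 6648 and 6258 (-1.23 ± 0.29). The abundant nucleolar proteins differed less, as *NSR1* was at -0.35 ± 0.01 and *NOP1*, fibrillarin, at -0.09 ± 0.04. *REA1*, the AAA ATPase of the large subunit, was the highest at 0.19 ± 0.06.

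The ribosome itself differed less than its assembly factors. The 137 cytosolic ribosomal protein genes had a median of -0.11, 121 of them below 0, and 0 were past a difference of 1 in both genotypes. *RPL3* had 202838 and 194492 normalized counts in replicate 1 of WT and *pbp1Δ* cells and 207269 and 205236 in replicate 2. *RPL43A* was the lowest at -1.04. Of 32 genes for RNA polymerases I and III and their factors, 31 had a negative mean difference. *RRN11*, a subunit of the core factor of RNA polymerase I, was the lowest, with 899 and 1196 against 3002 and 3169 (-1.57 ± 0.24). Mitochondrial ribosomal subunits had a median of -0.15, with 67 of 73 below 0 and 0 past the threshold. The actin gene *ACT1* was at 0.16 ± 0.04.

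**Figure D5:**
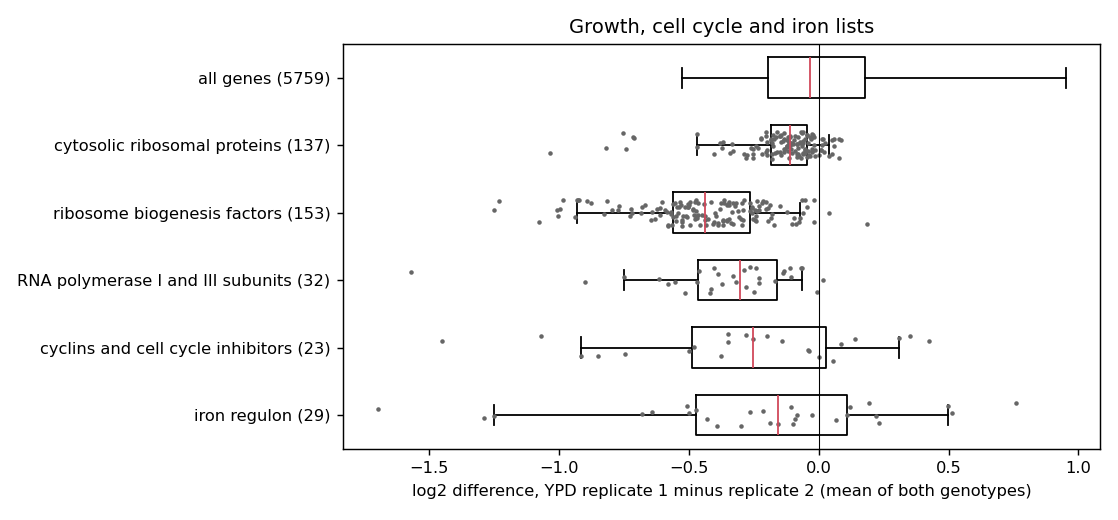
Log2 difference between YPD replicates 1 and 2 (mean of both genotypes) for all genes and for 5 lists, with the number of genes in brackets. Boxes span the quartiles with the median in red, whiskers reach from the 5th to the 95th percentile, and points are single genes. The ribosome biogenesis factors (median -0.44) lie further below 0 than the ribosomal proteins (median -0.11).

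Genes higher in replicate 2 included G1 to S phase regulators and metal uptake genes. *CLB6*, an S phase cyclin, had 336 and 252 normalized counts in replicate 1 of WT and *pbp1Δ* cells and 737 and 860 in replicate 2 (-1.45 ± 0.45). Its partner *CLB5* had 1249 and 1343 against 2737 and 2695 (-1.07 ± 0.09). *YOX1*, a repressor of early cell cycle genes, had 1168 and 1060 against 3151 and 2951 (-1.45 ± 0.03). The replicates did not overlap in these genes. *CLN3*, the cyclin that starts the cycle, was at 0.08 ± 0.11, and of 23 cyclins and inhibitors 17 were below 0. Most of all genes were below 0 too, with a median of -0.03. *HO*, the mating-type endonuclease gene expressed in late G1, had 4132 and 2200 against 8559 and 5644.

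*FRE1*, a reductase of iron and copper at the cell surface, had 7506 and 9843 normalized counts in replicate 1 and 26404 and 29500 in replicate 2 (-1.70 ± 0.16). *CTR3*, a copper transporter, had 6897 and 5844 against 20835 and 17016 (-1.57 ± 0.04). *CTR1*, the other high-affinity copper transporter, was at -0.93 ± 0.20. These copper genes were thus lower in replicate 1 in both genotypes. In YPL, *FRE1* had 21469 and 15728 in WT replicates 1 and 2 and 4400 and 16679 in *pbp1Δ* replicates 1 and 2. *CTR3* had 101828 and 85253, and 11648 and 56917. The genotypes deviated in opposite directions there, and neither gene passed the test of the YPL replicates. The iron genes *FET3*, the ferroxidase (-1.25 ± 0.03), and *SIT1*, a siderophore transporter (-1.29 ± 0.16), were also higher in replicate 2. Of 29 genes of the iron regulon these 2 and *FRE1* were past the threshold, and *FIT3*, a wall protein that holds siderophores, went the other way at 0.76 ± 0.29. The other genes with the most negative differences were *YGR079W* (-1.83 ± 0.38), *HLR1* (-1.42 ± 0.03), *GFD2* (-1.36 ± 0.25) and *YPL080C* (-1.33 ± 0.10).

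The promoters of these genes were searched over the 500 bases before the start codon, on both strands, for the elements shown in the sequences above. A full window was read for 5753 genes, sites of different elements were counted independently of each other, and matches are descriptions of sequence. AGGGG was found before 75.6% of the 217 genes higher in replicate 1 (164 genes), 4.76% of the 21 higher in replicate 2 (1 gene) and 34.5% of all genes. At least 2 such sites were found before 42.4% of the 217 genes and 8.29% of all genes. Of the 18 genes over 8-fold higher in both genotypes, 88.9% had a site. *TSL1* had 5 sites, *GLK1* and *HXK1* 3 each, and *TDH1* 2. Among lists, AGGGG stood before 90.0% of trehalose and 66.7% of glycogen genes but 33.3% of chaperone genes.

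The heat shock element GAANNTTC, by contrast, was found before 21.7% of the 217 genes and 19.2% of all genes, and before 54.2% of chaperone genes. The elements of growth genes had the opposite distribution to AGGGG. The PAC element GCGATGAG was found before 49.7% of ribosome biogenesis genes, 0.73% of ribosomal protein genes, 1.38% of the 217 genes, 23.8% of the 21 genes and 4.99% of all. The element AAAAATTTT, known as RRPE, was found before 66.0% of ribosome biogenesis genes, 9.49% of ribosomal protein genes, 2.76% of the 217, 28.6% of the 21 and 9.79% of all. Ribosome biogenesis factors, in which both elements were common, had the lowest median difference of the lists.

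The position of YPD replicate 1 and replicate 2 relative to YPL differed from gene to gene. For 103 of the 217 genes both libraries of replicate 1 lay above every YPL library, for 58 they lay below every YPL library, and for 56 neither held. Over all genes 33.7% lay above and 32.6% below. For replicate 2, 15 of the 217 genes lay above every YPL library and 172 below, beside 35.8% and 34.6% of all genes. *HSP30*, *TPO2* and *MGA1* were high in replicate 1 alone, with 188 to 211 normalized counts of *MGA1* in YPL WT cells against 2247 and 2031 in replicate 1. *HSP12*, *HSP26* and *DDR2* were instead far higher in YPL than in either YPD replicate.

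Median differences were close to 0 at every GC content and coding length, while the genes higher in replicate 1 were more frequent among GC-rich genes. From the fifth of genes with the lowest GC content to the fifth with the highest, the median difference went from -0.06 to 0.009, and the number of genes higher in replicate 1 was 23, 19, 48, 66 and 61. By coding length, from short to long, the medians lay between -0.08 and -0.0003 and the numbers were 30, 44, 50, 60 and 33. Their part in the result was not tested. Chromosome medians lay between -0.08 for XIV and 0.03 for I. In bulk RNA, a culture in which every cell has more of a transcript and a culture in which more cells carry it cannot be told apart.

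The YPL libraries, which were not used to choose the contrast, were asked whether same-numbered cultures differ there too. Few genes were called there, by a test that left 2 residual degrees of freedom. The differences spread with an SD of 0.22 in WT and 0.31 in *pbp1Δ* cells over all genes, against 0.58 and 0.53 in YPD, and the genotypes correlated with Pearson's r = 0.24. Between media, the YPD and YPL differences correlated across genes with r from -0.22 to 0.01. Tested with limma over the 8 libraries, with the replicate number within each medium as a term, 9 genes were higher in YPL replicate 1 and 4 in replicate 2 (0.226% of genes), and 874 had an unadjusted p under 0.05. A call needed an adjusted p (Benjamini-Hochberg) below 0.05 together with a log2 fold change beyond 0.58 either way. Leaving out a library gave 7 to 72 and 10 to 40 genes.

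Of these 13 genes, 1 was also past the YPD threshold. Higher in YPL replicate 1 were *BSC1* (0.94 ± 0.15 SE, adjusted p = 0.0391), *MCH5*, a riboflavin transporter (0.89 ± 0.09, adjusted p = 0.0173), *PRM7* (0.81 ± 0.10, adjusted p = 0.0275), *GIC2*, a Cdc42 effector (0.72 ± 0.10, adjusted p = 0.0391), and *RNR1*, the large subunit of ribonucleotide reductase (0.70 ± 0.10, adjusted p = 0.0391), all by limma. *BSC1* had 1255 and 1745 normalized counts in YPL replicate 1 of WT and *pbp1Δ* cells against 842 and 707 in replicate 2. *PRM7* and *BSC1* are neighbours on chromosome IV. *GIC2*, *RNR1* and *HTB2*, a histone H2B gene, are expressed late in G1 or in S phase. Their YPD replicate differences were -0.51, -0.53 and -0.12.

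Higher in YPL replicate 2 were *PAI3*, an inhibitor of a vacuolar protease (-0.91 ± 0.12 SE, adjusted p = 0.0288), *YJL213W* (-0.70 ± 0.11, adjusted p = 0.0391), *MLS1*, malate synthase (-0.68 ± 0.11, adjusted p = 0.0391), and *HSP12* (-0.62 ± 0.10, adjusted p = 0.0391), by limma. *HSP12* had 53481 and 92449 in YPL replicate 1 against 95831 and 121912 in replicate 2, so that the replicates overlap across genotypes but not within them. All 4 had a YPD difference of the opposite sign, between 0.23 and 0.88. *HO* was the gene in both sets, at -1.20 in YPD and 0.62 ± 0.09 in YPL (adjusted p = 0.0391 by limma). When the fit had no trend in the mean, 0 genes were called in YPL, with 755 at an unadjusted p under 0.05.

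The genotype difference in YPD is balanced over the replicates, and it was asked how the replicate difference bears on it. With limma over the 4 groups and no term for replicate, 6 genes were higher and 50 lower in *pbp1Δ* cells (0.972% of genes), and 9 to 13 were lower when any library was left out. Of the 238 genes past the YPD replicate difference 0 were among them by limma, and 2 had an unadjusted p under 0.05. The median standard error of the genotype difference was 0.69 for the 217 genes higher in replicate 1 and 0.14 for genes past neither way. The 238 genes were chosen for a gap between replicates, which this fit counts as spread. Their few calls and large standard errors therefore follow from that choice. With the replicate number as a block within each medium the standard errors were 0.11 and 0.09. In that fit 22 genes were higher and 192 lower (3.72%), and all 56 genes of the first fit were kept.

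Of the 238 genes, 22 were called with the block, 20 of them lower in *pbp1Δ* cells. The acid phosphatases *PHO11* (-1.33 ± 0.10 SE, adjusted p = 5e-05 by limma), *PHO5* (-1.09 ± 0.10, adjusted p = 0.00016) and *PHO3* (-0.96 ± 0.09, adjusted p = 0.00017) were lower. *PHO5* had 4974 and 1425 normalized counts in WT and 2228 and 706 in *pbp1Δ* cells of replicates 1 and 2, so that the genotype gap was present in each replicate. *HSP26* (-0.96 ± 0.08, adjusted p = 0.00012 by limma), *HXT7* (-0.80 ± 0.09, adjusted p = 0.0005) and *HXK1* (-0.77 ± 0.08, adjusted p = 0.00045) were also lower, and *TPO2* was higher (0.63 ± 0.17, adjusted p = 0.0451). The lower genes also included *RDT1* (-5.87 ± 0.53, adjusted p = 0.00017 by limma), with 505 and 1042 normalized counts in WT and 6.69 and 19.1 in *pbp1Δ* cells. The genotypes differ in mating-type transcripts as well, and the part of this in the genotype calls was not tested.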

How the data were processed

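Poly-A RNA of WT and *pbp1Δ* cells in YPD and YPL was sequenced in 8 libraries. The authors trimmed paired-end reads with Trim Galore, aligned them to the R64 genome with STAR 2.7.3a, counted uniquely mapped reads per gene with featureCounts of Subread 1.6.3 and used DESeq2 (given as 3.16). They deposited normalized counts, a linear signal scaled per library. Use of strand in counting is not given in the sources used here. The smallest step between low values was 0.892 to 1.16 normalized counts, but whole reads could not be recovered, so no count model was run and counting error is not given.

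Columns were matched to samples by name, with DPB read as the *PBP1* deletion. All 5774 identifiers matched RefSeq R64, and 2 symbols written as dates were matched by identifier. The log2 of the normalized count + 1 was taken for genes averaging at least 10. Tests used limma 3.58.1 in R 4.3.3 with a trend in the mean, all 8 libraries in a single fit, and were tested on simulated data. For the genotype fit the simulated libraries held no difference between replicates, so that the simulation does not cover such a difference. As nothing says what separates replicates, p-values measure the spread between these libraries. Other work used Python 3.11.15 with pandas 2.3.3 and numpy 2.4.6, and plots matplotlib 3.10.9.

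The members and lists were chosen with earlier results of these data known. Named are the 10 largest and 10 smallest YPD differences among genes with a mean of at least 100, a set list of stress, sugar and growth genes, the ends of each list, the 5 largest YPL calls each way and the 5 genes most like *HSP12*. Opposite genotypes with a mean of at least 100 were also to be named, and 0 genes met this. Other genes were named after their values were seen. Alternatives changed pseudocount, filter, scaling, threshold, trend, block and libraries. A few items are not reported here.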

Additional observations from a re-analysis of the deposited data

Results flagged for a closer look

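In 3 genes the YPD replicates differed in one direction and the YPL replicates in the other, in both genotypes and past a log2 difference of 0.58 each time. The difference between the media was not tested. *ALD3*, an aldehyde dehydrogenase induced by stress, was higher in YPD replicate 1 (1.65) and lower in YPL replicate 1 (-0.96). *PAI3* was at 0.88 in YPD and -0.91 in YPL. *HLR1* was at -1.42 in YPD and 0.60 in YPL.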

How the results depend on the processing

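The counts of genes past the YPD replicate difference kept within 1.5 times under other pseudocounts, filters and centring, and grew to 449 and 142 at a log2 difference of 0.58. With a single genotype pair they were 249 to 313 toward replicate 1 and 44 to 69 toward replicate 2. List medians near 0 changed sign in 5 lists. With the *pbp1Δ* pair alone the respiratory complexes went from -0.03 to 0.002 (WT pair alone -0.0365), other amino acid biosynthesis from 0.006 to -0.08 (-0.007 when centred), **a**-specific genes from -0.17 to 0.08 and α-specific genes from -0.07 to 0.03. Fatty acid synthesis went from 0.09 to -0.007 with the WT pair alone. Centring moved 6 of 48 list medians by more than the SD between genotypes, each by -0.01, and a mean of at least 100 moved 1, translation factors, from -0.07 to -0.08. The same filter took the small heat shock proteins and hydrophilins from 0.80 to 1.15. Of 57 single genes, centring moved 3 and a pseudocount of 8 moved 1.

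In YPL, 9 and 4 genes were called. These became 0 and 0 without the trend and 22 and 19 with the 4 YPL libraries alone. Leaving out a library gave 7 to 72 genes higher in replicate 1 and 10 to 40 higher in replicate 2, the most without a WT YPL library, and the lone library was assumed to vary like the others. For genotype in YPD, centring gave 23 lower genes, no trend 32, the 4 YPD libraries alone 9, and leaving out a library 9 to 13. There were 5 higher genes with the YPD libraries alone and 6 in the others. The cause of these shifts was not tested.

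Whether equal numbers mark a shared culture day is not known. The replicate differences of the genotypes correlated across genes with Pearson's r = 0.85 in YPD and 0.24 in YPL. The YPD value lay behind the choice of this contrast. Between media, the replicate differences correlated across genes with r from -0.22 to 0.01. With a replicate block within each medium 22 genes were higher and 192 lower in *pbp1Δ* cells, with a block over both media 7 and 75, and with a block in the 4 YPD libraries alone 26 and 198. The planned count test was not run, since whole reads could not be recovered from the deposited values. Depth limits the genes with few counts, such as the 13 opposite genes.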
